A study of Mus musculus with 4 samples.

Results

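The constitutive proteasome genes were examined on 4 Affymetrix arrays of mouse embryonic fibroblasts, to see whether restoring menin, the product of Men1, changed their RNA levels. The arrays held 2 samples of Men1 knockout cells given Men1 back (called Men1 below) and 2 samples of the same kind of knockout cells given vector (called vector). Per the labels, all 4 samples carried the Men1 knockout on a mixed FVB;129Sv background. Culture was also the same for all, in 10% serum, with plating at 70% density 24 h before harvest. The labels give no age of the embryos, no detail of the knockout allele or of how Men1 was expressed, and nothing that says whether replicates were separate cultures or clones, so the p-values given reflect spread among these samples that may be technical. Members were the probe sets annotated with exactly 1 gene symbol that begins with Psma, Psmb, Psmc or Psmd and a digit, without the immunoproteasome genes Psmb8, Psmb9 and Psmb10. This gave 45 probe sets for 35 of the 8251 genes named on the array, 14 of the core particle (Psma and Psmb) and 21 of the regulatory particle (Psmc and Psmd). The rule used no measured value. It also took Psmc3ip, a recombination protein whose name derives from a proteasome subunit, and the assembly chaperones Psmd5, Psmd9 and Psmd10, none of which is part of the finished particle.

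The proteasome is the protease that degrades ubiquitin-tagged proteins in the cytosol and nucleus. Its core is a barrel of outer alpha rings, which gate the entrance, and inner beta rings, which hold the protease sites. The regulatory particle caps the barrel: a ring of ATPases unfolds the substrate, a lid with a deubiquitinase removes the ubiquitin, and further subunits bind ubiquitin. The subunits are made in fixed proportions, and when the proteasome is inhibited the transcription factor Nfe2l1 is known to raise their genes together through antioxidant response elements in the promoters.

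Promoters from the RefSeq table were searched for the core of that element, TGANNNNGC, and for CCAAT and GGAAGT, each on both strands. Each promoter (GRCm38.p6) ran from 250 bases before to 50 after the start, read 5′ to 3′ on the gene's strand. Of the 35 genes, 29 were matched to 31 promoters, and Psmb1, Psmb2, Psmb7, Psmc3, Psmd3 and Psmd7 were not matched. The promoters of catalytic subunits Psmb5 (chr14:54617946-54618245, minus strand) and Psmb6 (chr11:70525107-70525406, plus strand) are shown to give the letters that were searched, with matches in capitals, all of them to TGANNNNGC.
Psmb5: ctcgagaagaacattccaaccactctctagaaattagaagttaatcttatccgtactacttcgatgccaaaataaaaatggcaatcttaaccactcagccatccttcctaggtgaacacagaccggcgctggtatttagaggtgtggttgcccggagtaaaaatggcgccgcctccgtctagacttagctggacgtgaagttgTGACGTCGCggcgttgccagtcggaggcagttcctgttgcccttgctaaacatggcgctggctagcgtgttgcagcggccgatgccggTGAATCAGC
Psmb6: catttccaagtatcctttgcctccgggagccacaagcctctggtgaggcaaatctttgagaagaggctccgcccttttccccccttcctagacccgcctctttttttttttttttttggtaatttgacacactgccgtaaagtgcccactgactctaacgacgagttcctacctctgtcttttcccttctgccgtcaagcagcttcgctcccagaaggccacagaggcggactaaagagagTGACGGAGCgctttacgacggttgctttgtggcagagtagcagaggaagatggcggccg
The matches lie at positions -47 and 42 from the annotated start in Psmb5 and at position -9 in Psmb6. TGANNNNGC was present in 18 of the 31 member promoters (58.1%), against 41.3% of all 32851 promoters in the table. CCAAT was present in 12 (38.7%), against 37.4% of all, and GGAAGT in 17 (54.8%), against 23.8% of all. Among promoters of genes on the array, TGANNNNGC was present in 42.3%, CCAAT in 37% and GGAAGT in 26.7%. By gene, TGANNNNGC was found for 8 of 11 core genes (72.7%) and 9 of 18 regulatory particle genes (50%), against 47.4% of genes on the array. CCAAT was found for 6 core (54.5%) and 6 regulatory particle genes (33.3%), against 42.5%. GGAAGT was found for 5 core (45.5%) and 11 regulatory particle genes (61.1%), against 31.1%. Matches of different motifs overlapped in 1 place. A match to such short letters describes the sequence and is not evidence of binding. Whether these motifs bear on how the members varied between arrays was not tested.

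The deposited values are MAS5 signals, linear probe set intensities that had been scaled so that all 4 arrays had the same trimmed mean, 150.1. Median signals were 54.3 and 55.65 on the Men1 arrays, against 50 and 62.4 on the vector arrays. The vector arrays differed most from each other: over all named genes the median absolute difference on the log2(signal + 16) scale was 0.31 between the vector arrays and 0.20 between the Men1 arrays. The ratio of 3′ to 5′ signal was 1.18 and 1.09 against 1.15 and 1.08 for the actin control, and 0.85 and 0.80 against 0.78 and 0.74 for the Gapdh control. Priming was with random oligomers as well as poly(T), so these ratios are not read here as a measure of RNA quality. Of 12 fibroblast markers, 7 exceeded the unspiked control probe sets on all arrays, with Col1a1 at 7619 and 6176 against 6057 and 7092. Thy1, a fibroblast surface marker, was at control level throughout. Of 7 blood cell markers, Cd14 (257.8 and 254.7 against 218.3 and 241.6), Cd74 (64 and 70.5 against 54.0 and 51.7) and Cd68 (39.8 and 56.7 against 47.6 and 54.5) exceeded the controls on all arrays, and Ptprc, Cd3e, Itgam and Lyz2 were at control level in both groups. Among 6 epithelial markers, 2 exceeded the controls on all arrays. These were Cdh1 (93.7 and 156.7 against 132.6 and 165.2) and Krt19 (106.7 and 146.5 against 93.6 and 67.2). Among 5 endothelial markers only Pecam1 did (41 and 49.5 against 23 and 37.9). Among the markers of these cell types, groups did not overlap, with Men1 higher, for Krt19 (log2 difference 0.56, SE 0.25) and Pecam1 (0.41, SE 0.23). The same held for Cd74 (0.27, SE 0.17) and Cd14 (0.15, SE 0.17). With Men1 lower, they did not overlap for the fibroblast marker Sparc (-0.30, SE 0.18) and the endothelial marker Kdr (-0.12, SE 0.17). Kdr was at control level with Men1. Over all genes, groups did not overlap for 10.1% in the higher and 12% in the lower direction. None of these markers had an unadjusted limma p under 0.05. Lower with Men1 were 5 epithelial and 3 endothelial markers. Vector replicate 2 stood apart in several matrix genes: decorin (Dcn) read 18.7 and 37.7 on the Men1 arrays against 18.5 and 139.3 on the vector arrays, and periostin (Postn) 5.7 and 46.4 against 8.2 and 125.1. The Men1 probe set read 18.8 and 22.5, both below the highest unspiked control of their array, against 18.1 and 29.5 on the vector arrays, both above the highest control there. It thus showed no higher Men1 RNA on the arrays labelled Men1 (log2 difference -0.11, SE 0.22), and every direction given here rests on the labels. The sources used here do not say which part of the transcript was deleted or put back.

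No member passed the test. Each probe set was fitted with limma on log2(signal + 16), Men1 minus vector, two-sided, with Benjamini-Hochberg adjustment over all 12422 probe sets that are not array controls. By limma, 0 of the 45 member probe sets passed an adjusted p of 0.05 (background 0% of all probe sets), and each had an adjusted p of 1. At an unadjusted limma p under 0.05 there were again 0 member probe sets, against a background of 1.88% of all probe sets (233 of 12422). With 2 arrays a group, an exact permutation test of any 1 value cannot give a two-sided p below 0.333. The median SE of a member gene's difference was 0.20, so small differences were not detectable here.

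Intervals limit the size of a difference for the genes that were measured. Taking for each gene its probe set with the highest mean signal, the lower end of the 95% interval lay above -1 for all 35 genes, and the upper end below 1 for 34 of them, the exception being Psmc3ip at 1.02. Over all 8251 genes, 7202 lower ends and 7376 upper ends met these limits. For Psmd2 and Psmc3ip, at control level with Men1, the intervals describe signals that were not measured above the controls and limit no fold. A difference of 1 on this scale is 2-fold for a bright probe set and more for a dim one. These intervals hold gene by gene, not for all genes at once. In bulk samples, fewer cells of a type and less RNA per cell cannot be told apart.

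**Figure D1:**
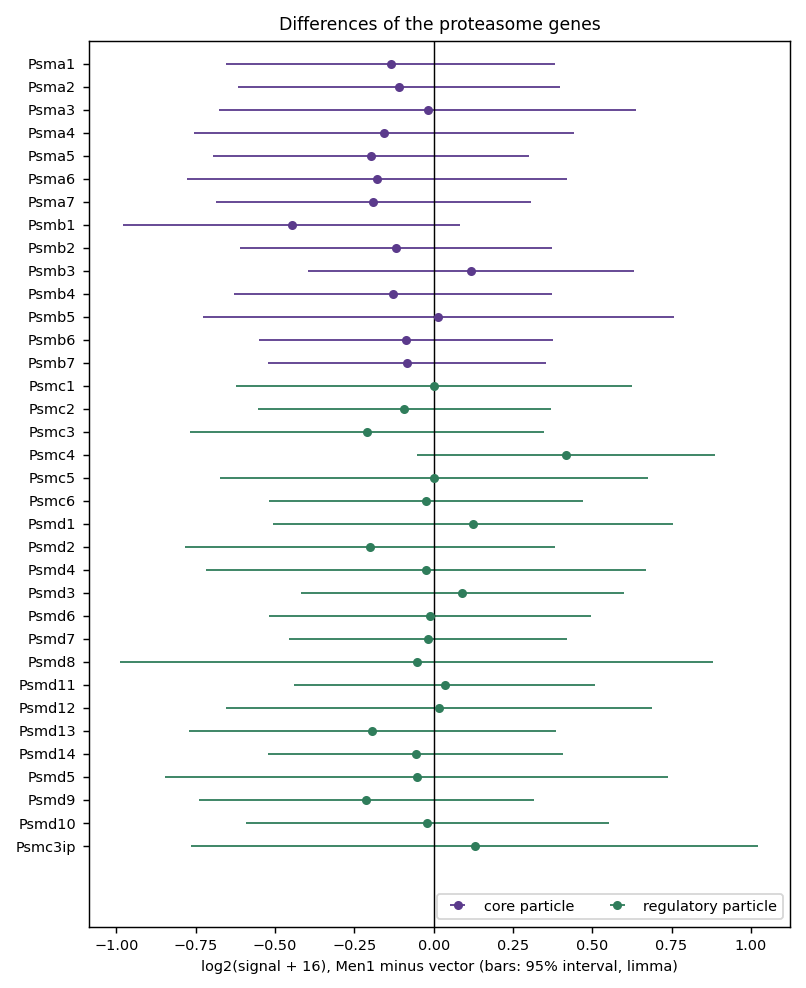
Difference in log2(signal + 16), Men1 minus vector, of the 35 proteasome genes in order of their place in the particle. Points are limma estimates from 2 arrays a group and bars are 95% intervals. Every interval includes 0, and the points run from -0.45 (Psmb1) to 0.42 (Psmc4).

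Core genes had mostly negative differences and regulatory particle genes lay around 0. Of the 14 core genes, 12 were lower and 2 were higher with Men1, with a median log2 difference of -0.12. Of the 21 regulatory particle genes, 13 were lower and 8 higher, with a median of -0.02. Over all 8251 genes 53% were lower and 47% higher, and the median was -0.01. The groups did not overlap for 4 member genes in the lower direction (background 12% of genes) and for 1 in the higher direction (background 10.1%). In both directions together, 5 of 35 members did not overlap, against 22.1% of all genes, so separation was no more frequent among the members than in the background. The counts of sign rested on 1 array: without vector replicate 1, 7 core genes were higher and 7 lower (median -0.03), and 18 regulatory particle genes were higher and 3 lower (median 0.11). Without vector replicate 2, 1 core gene was higher and 13 were lower (median -0.27), and 2 regulatory particle genes were higher and 19 lower (median -0.14).

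In what follows, array values are signals, replicate 1 then replicate 2 of each group, and a difference is always in log2(signal + 16), Men1 minus vector. The alpha ring, which gates the core, had 7 measured genes, and all 7 had negative differences, between -0.20 and -0.02, with none past the test. Psma5 differed most, with 310.2 and 370.1 on the Men1 arrays, against 413.7 and 369.2 on the vector arrays (log2 difference -0.20, SE 0.19, 95% interval -0.69 to 0.30). Its groups overlapped, because Men1 replicate 2 lay just above vector replicate 2. Psma7 was the only alpha gene whose groups did not overlap, with 119.9 and 148.7 in Men1 cells, against 150.2 and 159.5 in vector cells (-0.19, SE 0.19). The gap of Psma7 between the groups was narrow, 148.7 in the higher Men1 sample and 150.2 in the lower vector sample. Psma3, the brightest alpha probe set, read 1156.3 and 1003.1 with Men1, against 1327.3 and 896.4 with vector (-0.02, SE 0.25). For Psma3 the vector arrays were the highest and the lowest of the 4, with both Men1 arrays between them. Psma6 had the same kind of vector spread, 297.7 and 323.5 with Men1 against 420.6 and 296.2 with vector (-0.18, SE 0.23). Psma1, Psma2 and Psma4 differed by -0.14, -0.11 and -0.16. The common sign of the ring rested on vector replicate 1, since without it 4 of the 7 genes were higher and 3 lower (median 0.01).

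In the beta ring, 5 of 7 genes were lower and 2 higher, with a median of -0.09. The ring holds the protease sites in Psmb5, which cuts after hydrophobic residues, Psmb6, which cuts after acidic residues, and Psmb7, which cuts after basic residues. Psmb5 read 441.2 and 484.2 in Men1 cells, against 590.3 and 353.9 in vector cells, a log2 difference of 0.01 (SE 0.29, 95% interval -0.73 to 0.76). Both Men1 values of Psmb5 lay between the vector values. Psmb6 read 167.6 and 166.7 with Men1, against 165.8 and 192.1 with vector (-0.09, SE 0.18, interval -0.55 to 0.38). Here 3 of the 4 arrays were nearly equal, and vector replicate 2 was higher. Psmb7 read 338.0 and 350.3 with Men1, against 359.1 and 371.9 with vector (-0.08, SE 0.17, interval -0.52 to 0.36). The groups of Psmb7 did not overlap, but the difference was smaller than its SE.

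Of the structural beta genes, Psmb1 had the largest negative difference of all 35 genes at the brightest probe set. With all probe sets of a gene averaged its difference was -0.08, and Psmc3 then had the largest negative one, -0.26. That Psmb1 average includes a probe set at control level in both groups, which differed by 0.30. The brightest Psmb1 probe set read 146.1 and 185.4 with Men1, against 247.1 and 214.5 with vector (log2 difference -0.45, SE 0.20, 95% interval -0.98 to 0.08). The groups did not overlap in this probe set. Another Psmb1 probe set of similar signal read 156.0 and 178.3, against 168.1 and 193.5 (-0.10, SE 0.19), with groups that overlapped. A dim Psmb1 probe set did not exceed the controls in either group. Psmb4, the brightest beta gene, read 728.4 and 680.7, against 852.9 and 696.4 (-0.13, SE 0.19), so that Men1 replicate 1 lay between the vector arrays. Psmb2 differed by -0.12 and Psmb3 by 0.12. Without vector replicate 1 the beta ring had 3 genes higher and 4 lower, and without vector replicate 2 it had 1 higher and 6 lower.

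**Figure D2:**
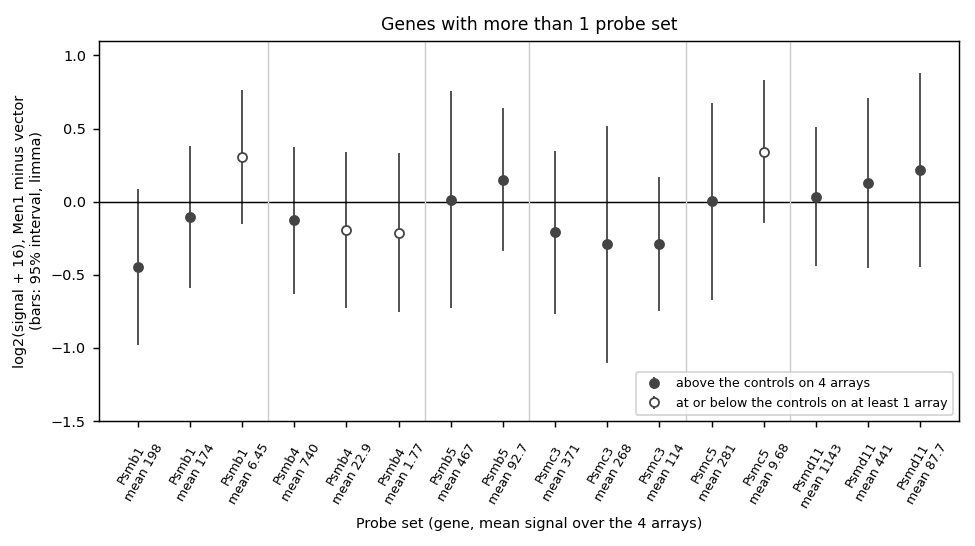
Difference in log2(signal + 16), Men1 minus vector, for every probe set of the 6 member genes with more than 1 probe set, with the mean signal of each under its name. Bars are 95% limma intervals and open points are probe sets at or below the unspiked controls on at least 1 array. The bright Psmb1 probe sets stand at -0.45 and -0.10, the 3 Psmc3 probe sets between -0.29 and -0.21, and the 3 Psmd11 probe sets between 0.04 and 0.22.

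The intervals of each gene's probe sets overlapped. The ATPase gene Psmc3 was negative in all 3 of its probe sets (-0.21, -0.29 and -0.29). In the dimmest of them the groups did not overlap, with 99.4 and 102.7 with Men1 against 135.5 and 119.3 with vector. The lid gene Psmd11 was positive in all 3 (0.04, 0.13 and 0.22), with groups that overlapped in each. The dimmer Psmb4 probe set at 17.2 and 23.3 against 21.5 and 29.4 was at control level with Men1 only. The dimmest, at 0.3 and 0.5 against 0.6 and 5.7, was at control level in both groups, as was the dimmer probe set of Psmc5. Of the Psmb5 probe sets, the dimmer one read 97.7 and 98.6 with Men1, against 77.9 and 96.5 with vector (0.15, SE 0.19), without overlap. Of the 45 probe sets, 38 exceeded the highest unspiked control on all 4 arrays and 3 were at control level in both groups. By the suffix of their names, 12 of the 45 are of kinds that Affymetrix marks as open to reading related transcripts or as made with relaxed probe rules. Among them are the only probe sets of Psma3, Psmb7, Psmd9 and Psmd12, all 3 of Psmc3, and the brightest of Psmb4 and Psmb5. The common sign of the Psmc3 probe sets may thus not come from Psmc3 alone, which was not tested.

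The ATPase ring had 3 genes lower and 3 higher, with a median of -0.01. Psmc4 had the largest positive difference of the members, with 43.0 and 36.4 in Men1 cells, against 23.8 and 27.6 in vector cells (0.42, SE 0.18, 95% interval -0.05 to 0.89). Its groups did not overlap, and its signal was low, near the highest controls of 25.9 and 27.4 on the Men1 arrays and 15.9 and 20 on the vector arrays. Psmc2 read 763.1 and 762.5 with Men1, against 762.1 and 870.0 with vector (-0.09, SE 0.18). Apart from vector replicate 2, the Psmc2 values were nearly equal. Psmc6, the brightest of the ring, read 981.4 and 911.1, against 1055.9 and 877.2 (-0.03, SE 0.19). Psmc3 is described above, and Psmc1 and Psmc5 differed by 0.0010 and 0.0020, and both had their highest and lowest values on the vector arrays. Without Men1 replicate 1 the ring had 1 gene higher and 5 lower, without Men1 replicate 2 it had 4 higher and 2 lower, and without vector replicates 1 and 2 in turn it had 4 and 2 higher.

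The base subunits outside the ATPase ring are the scaffolds Psmd1 and Psmd2 and the ubiquitin receptor Psmd4. Psmd1 read 727.5 and 725.1 with Men1, against 808.4 and 546.8 with vector (0.12, SE 0.24). Psmd4 read 261.8 and 419.1, against 344.7 and 329.9 (-0.02, SE 0.27), with the Men1 arrays the lowest and the highest of the 4. The only Psmd2 probe set was at control level with Men1, at 13.6 and 10.3, against 21.3 and 11.6 with vector (-0.20, SE 0.22). No fold is given for Psmd2, because the control level leaves no bound above 1.

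The lid had 8 genes, 5 lower and 3 higher, all between -0.19 and 0.09. Psmd14, the deubiquitinase that releases ubiquitin chains, read 328.0 and 354.9 in Men1 cells, against 377.6 and 334.8 in vector cells (-0.06, SE 0.18, interval -0.52 to 0.41). Psmd7, its partner in the lid, read 624.9 and 649.9, against 654.4 and 637.1 (-0.02, SE 0.17, interval -0.46 to 0.42). For both genes the groups overlapped. Psmd8 varied more between the vector arrays than any other of the 35 genes, with 241.3 and 279.5 against 385.2 and 188.0 (-0.05, SE 0.36). Psmd13 read 171.4 and 191.3, against 246.1 and 177.7 (-0.19, SE 0.22), the lid gene with the smallest unadjusted p. Psmd11, the brightest lid probe set, read 1190.9 and 1121.5, against 1214.8 and 1046.2 (0.04, SE 0.18). Psmd3, Psmd6 and Psmd12 differed by 0.09, -0.01 and 0.02. Without vector replicate 1 all 8 lid genes were higher (median 0.11), and without vector replicate 2 all 8 were lower (median -0.12).

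Among the genes that the name rule adds to the regulatory particle, the chaperone Psmd9 read 115.8 and 120.0 with Men1, against 120.9 and 159.6 with vector (-0.21, SE 0.20). Its groups did not overlap, by a margin of 120.0 to 120.9. Psmd5 read 264.7 and 341.6, against 405.7 and 240.4 (-0.05, SE 0.31), with the vector arrays outermost. Psmd10, also known as gankyrin, differed by -0.02 (SE 0.22) at signals of 30.0 and 19.0 against 27.8 and 21.8, close to the controls. Psmc3ip was at control level with Men1 (23.7 and 7.0, against 17.0 and 7.1). Left without these 4 genes, the regulatory particle had 10 genes lower and 7 higher, with a median of -0.02.

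**Figure D3:**
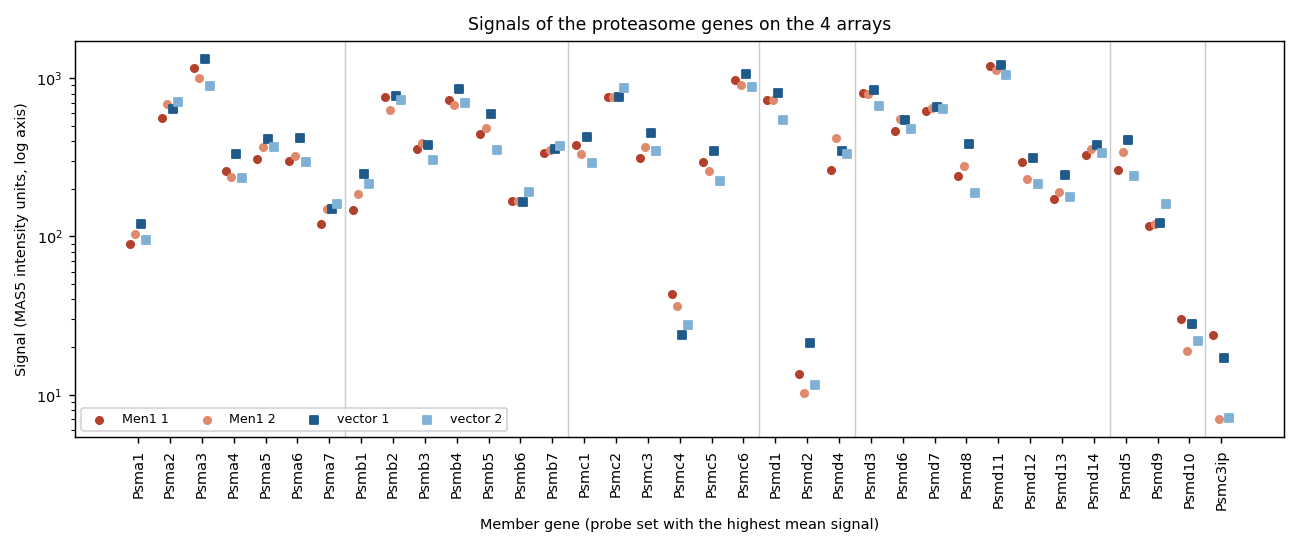
Signal on each array, on a log axis, of the 35 proteasome genes at their brightest probe set, ordered by alpha ring, beta ring, ATPase ring, base, lid, chaperones and Psmc3ip. Circles are the 2 Men1 arrays and squares the 2 vector arrays. In most genes vector replicate 1 is the top point, and the groups overlap in 30 of the 35.

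The members varied together more between the vector arrays than between the groups. Vector replicate 1 was the highest of the 4 arrays for 23 of the 35 genes (65.7%), against 20.7% of all genes and 29.1% of all genes with a mean signal of at least 100. Men1 replicates 1 and 2 were highest for 3 genes each, and vector replicate 2 for 6. The median difference between vector replicate 1 and vector replicate 2 was 0.29 over the members, 0.24 over the core and 0.32 over the regulatory particle, against -0.12 over all genes and 0.01 over genes with a mean signal of at least 100. Between the Men1 arrays, replicate 1 minus replicate 2, the median over the members was -0.05. Of the members, 28 were higher on vector replicate 1 than on vector replicate 2 and 7 were lower.

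**Figure D4:**
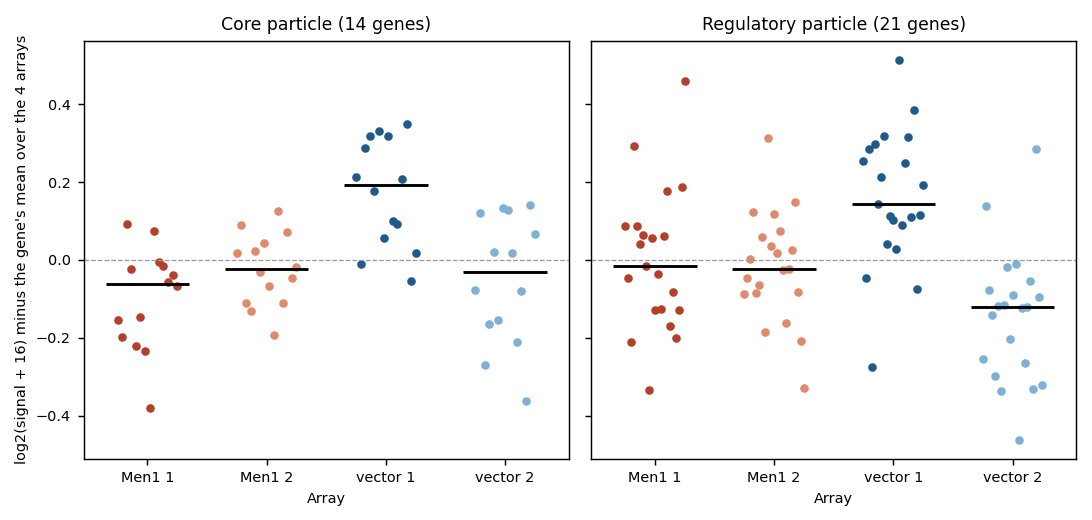
Deviation of each gene's log2(signal + 16) from its own mean over the 4 arrays, by array, for 14 core and 21 regulatory particle genes. Points are genes and black lines are medians, which on vector replicate 1 stand at 0.19 (core) and 0.14 (regulatory) and on the other arrays between -0.12 and -0.02.

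Over all members, comparisons against each vector array differed in sign. Against vector replicate 1, the median member difference was -0.19 for Men1 replicate 1 and -0.21 for Men1 replicate 2. Against vector replicate 2, it was 0.06 and 0.08. For the core alone the medians were -0.26 and -0.24 against vector replicate 1, and -0.03 and -0.01 against vector replicate 2, with 7 genes higher and 7 lower in each of the last pair. For the regulatory particle they were -0.15 and -0.21 against vector replicate 1, and 0.16 and 0.10 against vector replicate 2. Pairs that share an array are not independent. The summed signal of the 12 fibroblast markers also differed between these arrays, at 11247 and 10049 on the Men1 arrays, against 9912 and 12141 on the vector arrays. The 5 skeletal muscle markers summed to 241.1 and 187.6, against 299.2 and 276.7, with 2 of the 5 above the controls on all arrays. At their brightest probe sets all 5 were lower with Men1 (median log2 difference -0.30), and a dimmer Ckm probe set was positive (0.23). The sign depended on single arrays: without Men1 replicate 2, and likewise without vector replicate 2, 2 were higher and 3 lower. Without Men1 replicate 1 they were 1 higher and 4 lower, and without vector replicate 1 all 5 were lower. Myog, a myogenic transcription factor, read 23.7 and 28.1 with Men1 against 68.1 and 53.3 with vector, without overlap (-0.87, SE 0.20), at an unadjusted limma p of 0.0073 and an adjusted p of 1. The Men1 values of Myog lay close to the highest controls of those arrays, 25.9 and 27.4. The part of either marker set in the proteasome values was not tested.

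Genes that work beside the constitutive particle did not pass the test either, by limma with adjustment over all probe sets. Of 4 measured genes of the immunoproteasome and its activator, which interferon induces, 3 were higher and 1 lower, and 1 higher and 3 lower without vector replicate 1. Psmb9 did not exceed the controls on any array, and Psmb8 exceeded the controls only on Men1 replicate 1, at 31.7 and 1.9 with Men1 against 4.7 and 3.9 with vector. Psmb10 was measured on all arrays, at 93.7 and 100.8 against 86.6 and 104.6 (0.025, SE 0.19). The interferon-induced activator subunit Psme1 read 118.4 and 102.5, against 139.3 and 140.6, with groups that did not overlap (-0.31, SE 0.18). Activators Psme3 and Psme4 differed by 0.13 and 0.29, each with overlapping groups. Sem1, a small lid subunit, read 658.7 and 714.5, against 682.3 and 643.2 (0.05, SE 0.17).

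Of 6 assembly factors, 5 were higher and 1 was lower, with a median of 0.05. The lower one was Pomp, the maturation factor of the core, with 465.6 and 536.2 in Men1 cells, against 635.4 and 696.7 in vector cells (-0.40, SE 0.18, 95% interval -0.88 to 0.08). Both Men1 values of Pomp were below both vector values. Psmg1, a chaperone of alpha ring assembly, read 127.9 and 119.1, against 115.9 and 84.1 (0.28, SE 0.21). Its groups and those of another assembly factor, Psmg4 (0.06, SE 0.17), did not overlap either, with Men1 higher. Groups thus did not overlap for 2 of the 6 factors in the higher and 1 in the lower direction, against 10.1% and 12% of all genes. Without single arrays 4 of the 6 factors were higher in every case.

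Upstream of the particle, 20 of 29 listed E1 and E2 enzymes, which activate and transfer ubiquitin, were measured, 8 higher and 12 lower (median -0.06). Without vector replicate 1 they were 13 higher and 7 lower, and without vector replicate 2 they were 6 higher and 14 lower. A dim probe set of the E2 gene Cdc34 had an unadjusted limma p of 0.016, with 3.1 and 10.4 on the Men1 arrays, both at control level, against 21.3 and 31.7, while the brighter Cdc34 probe set differed by 0.13 (SE 0.21). Of the E2 genes taken at their brightest probe set, Ube2w had the smallest unadjusted p and was at control level with Men1, at 12.6 and 16.8 against 22.0 and 20.4. Of 10 measured deubiquitinases, 4 were higher and 6 lower (median -0.02), and without vector replicate 1 they were 7 higher and 3 lower. Usp14, which trims chains at the proteasome, read 503.7 and 497.2, against 591.8 and 443.3 (-0.03, SE 0.21). A dim Usp14 probe set with an unadjusted limma p of 0.015 was at control level in both groups. Usp9x, the deubiquitinase with the smallest p at its brightest probe set, differed by 0.26 (SE 0.19). Of 6 measured shuttle and segregase genes, which carry or extract substrates, 4 were higher and 2 lower (median 0.09), and without vector replicate 2 they were 3 higher and 3 lower. Ubqln1, a shuttle, differed by 0.25 (SE 0.22) at its brightest probe set. Its other probe set differed by 0.05 (SE 0.20), with overlapping groups. The segregase Vcp read 2029.3 and 1880.6, against 1876.4 and 2170.1 (-0.05, SE 0.18).

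Of 9 measured transcription factors tied to proteasome gene expression, 7 were higher and 2 lower, with a median of 0.08, and no probe set of theirs passed. Nfe2l1, the factor named above, read 920.1 and 692.9 with Men1, against 945.4 and 735.9 with vector (-0.06, SE 0.24). Its groups overlapped and, in both, replicate 1 was the higher array. A dimmer Nfe2l1 probe set differed by 0.05 (SE 0.22), so the place of Nfe2l1 among the 2 lower factors depended on the probe set. Nfe2l2 read 518.0 and 584.2, against 477.4 and 541.5 (0.11, SE 0.19). Maff, a small partner of both factors, read 49.8 and 50.8, against 36.0 and 37.2 (0.33, SE 0.17), with groups that did not overlap.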

How the data were processed

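RNA of 4 samples of mouse embryonic fibroblasts was measured on Affymetrix arrays. Per the submitters' processing notes, the authors used MAS5 and Affymetrix Expression Console to make the deposited linear intensity values. Their versions and scaling target are not given in the sources used here. Per the labels, RNA was primed with both poly(T) and random oligomers, and how this affects each probe set is not known here. Arrays were scaled as a whole, so an overall change in RNA per cell would not be seen. The table held 12488 probe sets, of which 66 array controls were left out. Genes were named from the platform annotation where a probe set had 1 symbol (10833 probe sets, against 396 with several and 1193 unnamed), with symbols updated by gene ID through a mouse gene table (GRCm38.p6, 10817 found). Men1 was set against vector on log2(signal + 16) in R 4.3.3 with limma 3.58.1 (lmFit, then eBayes), with no further normalization, 2 residual and 2.87 prior degrees of freedom. The code of the fit was checked on simulated data, without changes and with changes larger than any member difference. This check does not show what could be detected among the members. The number of arrays limits the precision. Control level means that both arrays of a group were at or below the highest of 19 unspiked control probe sets. Genes with several probe sets were counted once, at the brightest by mean signal. The members and gene lists were chosen with earlier results of these data known. By the naming rule, each group of subunits gives array values for the catalytic genes, the gene with the smallest p and the brightest gene, and the lists of other pathway genes name their gene with the smallest p and any probe set at an unadjusted p under 0.05. Other genes given array values, such as Psma7, Psmd4, Usp14 and the cell type markers, were added after their values were seen. None of the listed ubiquitin genes had a probe set with 1 symbol. Alternatives were pseudocounts of 1 and 64, quantile normalization, centring on the median, a minimum mean signal of 50, control probe sets kept in, a replicate block, a trend in eBayes, averaging over probe sets, leaving out non-subunits, and leaving out each array.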

Additional observations from a re-analysis of the deposited data

How the results depend on the processing

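In each setting 0 probe sets passed the adjusted threshold by limma, over the members and over all. At an unadjusted p under 0.05 there were 233 of all probe sets as reported, 67 with a minimum mean signal of 50, where fewer probe sets were tested, and 121 to 1031 without single arrays. Of the members there were 0 as reported, 1 with a pseudocount of 1 (a Psmb1 probe set at control level) and 0 to 1 without single arrays (Psmc3, lower without vector replicate 2). The replicate numbers are shared by 2 pairs only, whose deviations correlated at 0.26 over all probe sets. With the replicate block the count over all probe sets was 297 and over the members 0, and no call changed.

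Member genes whose groups did not overlap in the higher direction were 1 as reported, 0 with the minimum signal and 2 when probe sets were averaged. Without single arrays, the lone array of a group was assumed to vary like the others. Separation was then more frequent among all genes, against 10.1% higher and 12% lower with all arrays. Without vector replicate 1, 15 members (42.9%) were separated in the higher and 7 (20%) in the lower direction, against 27.1% and 45.5% of all genes. Without vector replicate 2 they were 3 (8.57%) and 26 (74.3%), against 39.7% and 28.3%. Without Men1 replicate 1 they were 4 (11.4%) and 9 (25.7%), against 23.8% and 26.4%. Without Men1 replicate 2 they were 3 (8.57%) and 13 (37.1%), against 24.1% and 28.1%. Without single arrays 1 to 7 core genes were higher and 7 to 13 lower, and 2 to 18 regulatory particle genes were higher and 3 to 19 lower. The core median ran from -0.27 to -0.033 and the regulatory median from -0.14 to 0.11. With all probe sets of a gene averaged, Psmb1 was at -0.082, against -0.45 at its brightest probe set, Psmb5 at 0.083, against 0.014, Psmc5 at 0.17, against 0.0020, and Psmd11 at 0.13, against 0.035. The averages of Psmb1 and Psmc5 each include a probe set at control level in both groups, at 0.30 and 0.34. In the other settings the core median stayed between -0.13 and -0.11. Signs near 0 turned for Psmc1 (-0.0011 with a pseudocount of 64 and -0.00019 with quantile normalization), Psmc5 (-0.0017 with a pseudocount of 64) and Psmd6 (0.0053 with centring). The cause was not tested.

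Without single arrays the log2 difference changed sign for these genes, with ranges of -0.28 to 0.010 (Psma1), -0.25 to 0.036 (Psma2), -0.30 to 0.26 (Psma3), -0.40 to 0.085 (Psma4), -0.42 to 0.064 (Psma6), -0.25 to 0.014 (Psmb2), -0.032 to 0.27 (Psmb3), -0.27 to 0.016 (Psmb4), -0.34 to 0.37 (Psmb5), -0.18 to 0.011 (Psmb6), -0.25 to 0.26 (Psmc1), -0.19 to 0.0013 (Psmc2), -0.26 to 0.52 (Psmc3ip), -0.30 to 0.30 (Psmc5), -0.16 to 0.11 (Psmc6), -0.15 to 0.40 (Psmd1), -0.22 to 0.18 (Psmd10), -0.071 to 0.14 (Psmd11), -0.24 to 0.27 (Psmd12), -0.41 to 0.025 (Psmd13), -0.14 to 0.026 (Psmd14), -0.42 to 0.016 (Psmd2), -0.067 to 0.25 (Psmd3), -0.35 to 0.30 (Psmd4), -0.41 to 0.31 (Psmd5), -0.14 to 0.11 (Psmd6), -0.046 to 0.0091 (Psmd7), -0.54 to 0.43 (Psmd8), -0.063 to 0.31 (Cdc34), -0.073 to 0.66 (Psme4), -0.0080 to 0.11 (Sem1) and -0.23 to 0.17 (Usp14). The sign stayed, over ranges of -0.32 to -0.075 (Psma5), -0.33 to -0.052 (Psma7), -0.60 to -0.29 (Psmb1), -0.11 to -0.058 (Psmb7), -0.39 to -0.028 (Psmc3), 0.33 to 0.50 (Psmc4), -0.39 to -0.032 (Psmd9), 0.32 to 0.35 (Maff), -0.50 to -0.30 (Pomp), -0.40 to -0.21 (Psme1), -0.38 to -0.18 (Ube2w), 0.034 to 0.46 (Ubqln1) and 0.13 to 0.39 (Usp9x). None of these passed in any setting.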
